A study of Mus musculus with 6 samples.

Results

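The genes described here are 9 genes of lymphoid priming: Flt3, Il7r, Dntt, Ikzf1, Tcf3, Satb1, Notch1, Rag1 and Ebf1. They were taken by symbol from a table of 23951 genes, and all 9 had a row. The table came from total RNA sequencing of haematopoietic stem cells (HSCs) of mouse fetal liver, in 3 wild type (WT) libraries and 3 libraries with a knockout (KO) of Uqcrfs1, which encodes RISP, the Rieske subunit of complex III in the mitochondrial respiratory chain. All cells were of the C57BL/6 strain, and the labels name no treatment. Neither the age of the embryos nor the deleted part of the gene nor the driver of its deletion is stated in the labels used here. The comparison of KO with WT asks how the transcripts of fetal HSCs differ when this subunit is missing. Nothing in the labels says whether replicates are different embryos, so the p-values weigh a difference against the spread of these libraries, which may be technical.

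Lymphoid priming is the low, early expression of lymphoid genes in multipotent progenitors before they are committed to the B or T lineage. In textbook accounts it is driven by transcription factors such as Ikaros and the E proteins, raised by the receptors FLT3, IL-7R and NOTCH1, and followed by the recombinase genes that assemble antigen receptors. Long-term stem cells are known to express the transcription factors of this programme well before the recombinase genes, while Flt3 marks the progenitors just downstream of them.

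Libraries held 10191354 to 13189329 counts in WT and from 12020128 to 14590844 in KO. Uqcrfs1 counts were 771, 1320 and 791 in WT against 60, 51 and 39 in KO, so every library matched its label by this gene. Defining genes of stem cells were present in all 6 libraries, with Kit at 6704 to 9785 counts and Hlf at 3184 to 4904. WT replicate 3 stood apart by macrophage and endothelial markers. The summed level of 11 macrophage and monocyte genes was 1110 CPM there (read counts scaled to library size with edgeR's TMM factors), against 389 and 221 CPM in WT replicates 1 and 2 and 103 to 156 CPM in KO. The sum of 10 endothelial genes was 1309 CPM there, against 430.2 to 585 CPM in the other 5 libraries. Of the 12204 genes that passed the expression filter, 1391 differed between KO and WT at an adjusted p under 0.05 (edgeR quasi-likelihood test, Benjamini-Hochberg), which is 11.4% of them.

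The 9 genes fell into 5 that were well expressed in both groups and 4 that were at or near 0. Ikzf1, Tcf3, Flt3, Notch1 and Satb1 passed the filter. Il7r, Rag1 and Ebf1 had at most 31 counts in any library, and Dntt had 0 counts in all 6. Of the 5 genes tested, Tcf3 was higher in KO and Flt3 was lower, and the other 3 did not pass the threshold. The background was 6.41% of genes higher and 4.99% lower. In bulk libraries, fewer cells of a type and less RNA per cell cannot be told apart.

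Per length, in the deposited RPKM values, Ikzf1 had the highest level of the 9 genes in WT at 41.7 ± 2.58 RPKM, followed by Tcf3 at 31.3 ± 4.50, Flt3 at 25.0 ± 5.38, Notch1 at 11.6 ± 2.51 and Satb1 at 10.4 ± 3.07 (SD, n = 3 each). The ranges of Tcf3 and Flt3 overlapped in WT, as did those of Notch1 and Satb1, so these neighbours were not separated by the spread between libraries. In KO the level of Tcf3 was 42.8 ± 4.94 RPKM, beside Ikzf1 at 44.0 ± 2.73, and their ranges overlapped. Flt3 stood at 16.6 ± 3.02 RPKM in KO, beside Notch1 at 13.3 ± 1.72, and these ranges overlapped too. Satb1 was at 8.69 ± 1.47 RPKM in KO, below every Notch1 value. In WT the mean was 0.356 RPKM for Il7r, 0.158 for Rag1 and 0.0668 for Ebf1, and Dntt was listed at 0 in all 6.

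CpG dinucleotides were sparse upstream of 3 of the 4 genes near 0. The 250 bases upstream of the annotated start are shown for the 2 genes that passed the test and for 2 of the genes near 0, because they show this contrast, with each CpG in capitals. The sequences are from RefSeq in the GRCm38.p6 build, read 5′ to 3′ on the strand of the gene. The submitters' processing notes name mm9, another build, so no position from it is given.
Tcf3, chr10:80433636-80433885, minus strand: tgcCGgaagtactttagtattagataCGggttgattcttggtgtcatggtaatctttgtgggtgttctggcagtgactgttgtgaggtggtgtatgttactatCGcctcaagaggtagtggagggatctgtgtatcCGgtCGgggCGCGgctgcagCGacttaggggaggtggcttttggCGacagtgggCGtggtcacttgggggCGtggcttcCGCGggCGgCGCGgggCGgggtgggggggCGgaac
Flt3, chr5:147400490-147400739, minus strand: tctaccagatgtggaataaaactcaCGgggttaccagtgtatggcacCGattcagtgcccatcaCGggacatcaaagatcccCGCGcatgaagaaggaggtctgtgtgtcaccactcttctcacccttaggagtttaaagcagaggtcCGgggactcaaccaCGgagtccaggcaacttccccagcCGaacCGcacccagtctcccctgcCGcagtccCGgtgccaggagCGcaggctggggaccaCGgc
Il7r, chr15:9529877-9530126, minus strand: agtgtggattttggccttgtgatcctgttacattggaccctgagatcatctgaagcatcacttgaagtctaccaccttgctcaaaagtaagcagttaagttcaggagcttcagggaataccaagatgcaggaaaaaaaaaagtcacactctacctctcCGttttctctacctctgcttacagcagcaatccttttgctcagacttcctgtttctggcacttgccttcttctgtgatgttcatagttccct
Dntt, chr19:41029025-41029274, plus strand: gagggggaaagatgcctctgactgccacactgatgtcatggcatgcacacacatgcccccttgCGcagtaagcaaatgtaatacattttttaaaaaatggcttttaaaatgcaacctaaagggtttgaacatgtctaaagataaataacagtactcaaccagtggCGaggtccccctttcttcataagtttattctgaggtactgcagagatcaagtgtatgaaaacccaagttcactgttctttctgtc

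The Tcf3 window held 18 CpG, an observed over expected ratio of 1.00, and the Flt3 window held 13, a ratio of 0.597. The Il7r window held 1 CpG (ratio 0.0844) and the Dntt window 2 (ratio 0.185). Rag1 resembled them with 3 CpG and a ratio of 0.190. The Notch1 window held 16 CpG (ratio 0.588). The bases that follow the RefSeq start were not found in any GENCODE M21 transcript of Il7r or Rag1, so these windows rest on the RefSeq start alone, while each other gene had at least 1 start that was found. Ebf1 was the exception among the genes near 0, since its 2 windows had ratios of 0.989 and 0.853. Ikzf1 and Satb1 have several annotated starts, 2 and 5 windows, with ratios from 0.0712 to 1.05 and from 0.151 to 1.06. A ratio of at least 0.6 was found in 65.1% of 11762 windows of genes tested in these libraries, in 18.7% of 8491 windows of genes of the count table that were not tested, and in 34.0% of all 32851 windows. By this cut the windows of Flt3 and Notch1, which were well expressed, fell below 0.6, while those of Ebf1 lay above it.

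Binding motifs of the members themselves were also searched on both strands of these windows. The E-box CAGGTG, a form bound by the TCF3 protein, was found in the Rag1 window and in 1 of the 5 Satb1 windows, and 17.2% of all windows held it. The sequence TGGGAA, the core bound by RBPJ, the DNA-binding partner of NOTCH1, was in the Rag1 window, in 1 Satb1 window and in 1 Ebf1 window, and in 21.6% of all windows. The EBF motif, TCCC and GGGA with 2 bases of any kind between them, was in none of the 15 windows of the members and in 0.779% of all windows. A match describes the letters of a window, not binding.

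**Figure D1:**
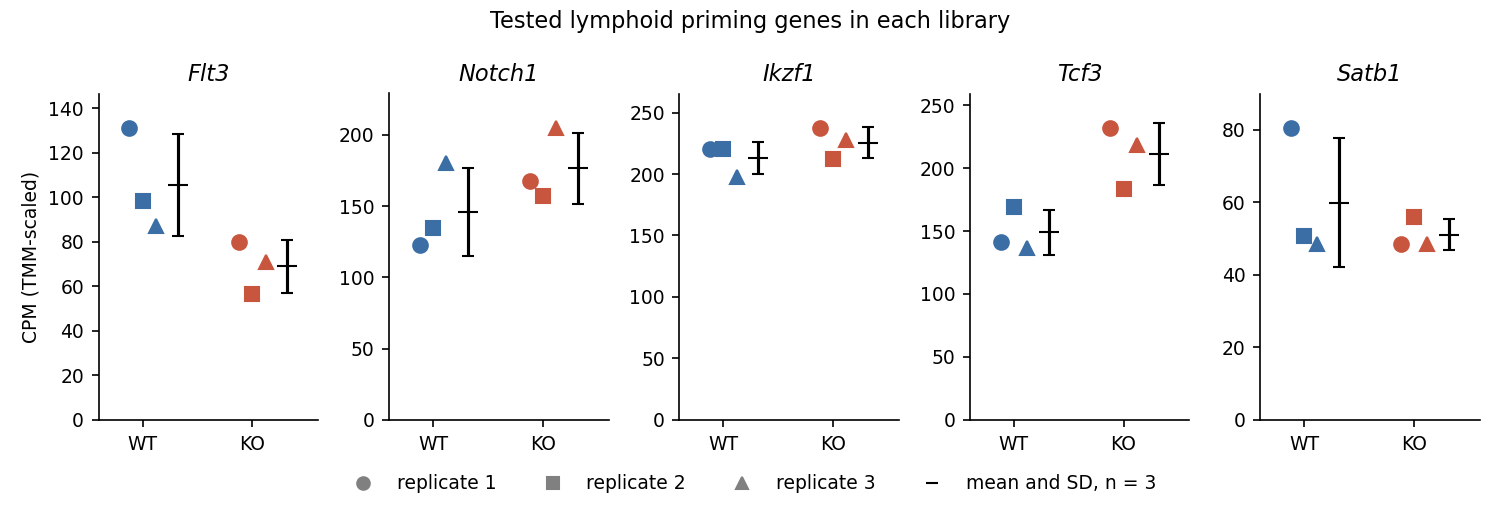
Level of the 5 tested genes in each library, in CPM (TMM-scaled, vertical axis from 0), for 3 WT and 3 KO libraries; bars give the mean and SD. The 3 KO libraries lie below the 3 WT libraries for Flt3 and above them for Tcf3, and the groups overlap for Notch1, Ikzf1 and Satb1. Over all genes tested, 30.2% had groups without overlap.

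Flt3 encodes the receptor for FLT3 ligand, a tyrosine kinase whose appearance marks the step from stem cell to lymphoid-primed progenitor. Its level was 131, 98.4 and 86.9 CPM in WT replicates 1 to 3 and 79.8, 56.4 and 71.0 CPM in KO replicates 1 to 3. All 3 KO libraries were below all 3 WT libraries, a pattern that 30.2% of tested genes showed in either direction. The mean fell from 105 ± 22.8 to 69.0 ± 11.8 CPM (SD, n = 3 each), and the log2 fold change was -0.61 (standard error, SE, 0.18; 95% interval -0.99 to -0.23; edgeR, adjusted p = 0.0322). The call was lost without WT replicate 1, the highest library (log2 fold change -0.42, adjusted p = 0.191), without KO replicate 2, the lowest (-0.48, adjusted p = 0.179), and without KO replicate 3 (-0.63, adjusted p = 0.0931), and also on the deposited RPKM values. The value stayed negative in all 14 alternative fits, from -0.73 to -0.42.

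Markers of other cells that express Flt3 were read beside it. Dendritic cells also express Flt3, and Irf8, a transcription factor of dendritic cells and monocytes, fell from 46.4 ± 10.9 to 19.4 ± 3.62 CPM (-1.25 on the log2 scale, SE 0.26, edgeR adjusted p = 0.00324). Zbtb46, a factor of conventional dendritic cells, had the other sign without passing (37, 48 and 131 counts in WT, 97, 188 and 115 in KO, log2 fold change 0.64, edgeR adjusted p = 0.515). The remaining dendritic cell genes of the list had few reads, with at most 54 counts in a library for Itgax, 48 for Siglech, 31 for Clec9a, 16 for Xcr1 and 6 for Batf3. The summed level of the 7 dendritic cell genes other than Flt3 was 46.9 to 69.9 CPM in WT and 29.3 to 38.6 CPM in KO. On average most of this sum was Irf8 in both groups, so it is not a reading separate from Irf8. The summed level of 13 stem cell identity genes was 2605 to 3081 CPM in WT and 2285 to 2437 CPM in KO. Of these 13 genes, 4 were lower, among them Cd34, Hlf and Kit, and 1, Fgd5, was higher. Over all genes tested, 4.99% were lower and 6.41% higher. Cd34 had a log2 fold change of -0.49 and Kit, the receptor of stem cell factor, of -0.38 (edgeR adjusted p = 0.00816 and 0.0212). All 5 of these calls were lost without KO replicate 2. The part of these cell types in the fall of Flt3 was not tested.

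Il7r encodes the receptor chain for interleukin 7 that common lymphoid progenitors need. Its reads numbered 0, 1 and 31 in WT replicates 1 to 3 and 0 in each KO library. A single library thus held nearly all of its reads, and it was WT replicate 3, the library with the most macrophage and endothelial RNA, whose part in the Il7r reads was not tested. In CPM the difference between group means did not separate the groups (exact permutation test, two-sided, p = 0.4, where the smallest possible is 0.1). Against 3 counts over the KO libraries, the limit that a count of 0 allows, the WT level as counted was 13.2-fold higher. That ratio leaves out the counting error of the WT reads and is not a lower bound. Without WT replicate 3 a total of 1 count remained and no fold could be given. The authors' RPKM table lists Il7r at 0.0406 in WT replicate 1, where the count table has 0. On the RPKM values the same exact permutation test gave p = 0.1, the smallest possible.

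The partners of the IL-7 receptor and FLT3 were well expressed in both groups. Il2rg, the shared gamma chain that pairs with IL-7R, was at 83.6 ± 9.57 CPM in WT against 85.5 ± 17.5 in KO (SD, n = 3 each), with a 95% interval of the log2 fold change from -0.33 to 0.39. Stat5a and Stat5b, which carry the signal to the nucleus, had log2 fold changes of 0.24 (interval -0.31 to 0.79) and 0.15 (-0.24 to 0.54). Of the 12 listed genes of IL-7 receptor and FLT3 signalling, 11 were tested and 0 passed in edgeR, DESeq2 or limma-voom. The unadjusted p was under 0.05 for 1 of them, Jak1, a kinase bound to these receptors, at a log2 fold change of -0.30 (edgeR adjusted p = 0.0921). It was named after its value was seen, and it passed when WT replicate 2 was left out. The median log2 fold change of the list was 0.15, beside -0.02 over all genes tested.

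Notch1 encodes the receptor that directs progenitors to the T lineage in the thymus. Its level was 122, 135 and 180.5 CPM in WT and 167, 157 and 204 CPM in KO, and the groups overlapped because WT replicate 3 exceeded 2 of the KO libraries. The log2 fold change was 0.27 (SE 0.15, 95% interval -0.04 to 0.58) and did not pass (edgeR, adjusted p = 0.273). It was 0.45 without WT replicate 3 (adjusted p = 0.0597) and 0.06 with length and GC offsets, in which Notch1, a long transcript, moved most of the 5 genes. The other well expressed receptor of the family, Notch2, was at 241, 250 and 244 CPM in WT and 193, 187 and 197 CPM in KO. Its fall by 0.35 on the log2 scale passed narrowly (edgeR adjusted p = 0.0437), and the call was lost whichever of the 6 libraries was left out (highest adjusted p = 0.174), with no filter and with the replicate block. The difference between the changes of Notch1 and Notch2 was not tested.

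Of 26 Notch pathway genes, 23 were tested, 1 was higher and 2 were lower, where 11.4% of all genes tested passed. Notch2 was one of the lower genes. Jag2, a Notch ligand gene, rose from 13.8 ± 5.66 CPM in WT to 30.1, 32.9 and 38.3 CPM in KO (log2 fold change 1.29, adjusted p = 0.0103) and lost its call without KO replicate 3 (adjusted p = 0.0668). Rbpj was at 142 ± 16.0 CPM in WT against 106 ± 9.61 in KO, with no overlap of the groups, a pattern of 30.2% of tested genes. It did not pass (edgeR adjusted p = 0.0565), although it passed with DESeq2 and with no filter. Hes1, a classical Notch target, had read counts of 0, 0 and 45 in WT against 43, 50 and 7 in KO, and the target Dtx1 had 0 in all 6 libraries. The pathway's median log2 fold change was -0.11, beside -0.02 over all genes tested.

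Ikzf1 encodes Ikaros, a zinc finger factor that opens lymphoid genes in multipotent progenitors. It was the steadiest of the 5 tested genes, at 220.0, 220.5 and 198 CPM in WT and 237, 212 and 228 CPM in KO. The log2 fold change was 0.08 with the narrowest interval of the 5, from -0.15 to 0.32 (edgeR, adjusted p = 0.704). That interval spans 0.901-fold to 1.25-fold. Over the 14 alternative fits the value lay between 0.03 and 0.13. Its relatives Ikzf2 (Helios) and Ikzf5 (Pegasus) did not pass either, at -0.24 (interval -0.51 to 0.03) and -0.16 (-0.72 to 0.40). Ikzf3 (Aiolos), which belongs to later B cells, had 0 to 5 counts in 5 libraries and 25 in KO replicate 3.

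Ikaros works with the NuRD chromatin remodelling complex, and 2 of its ATPase genes rose while Ikzf1 did not pass. Chd3 went from 149 ± 13.7 to 485 ± 78.8 CPM, a log2 fold change of 1.70 (SE 0.13, edgeR adjusted p = 2.60e-08). Chd4 rose by 0.56 on the log2 scale (SE 0.09, adjusted p = 0.000285). Both kept their calls in all 14 alternative fits. Rbbp4, a histone-binding subunit of NuRD and of other complexes, fell from 250.2 ± 10.2 to 187 ± 16.0 CPM (adjusted p = 0.0194) and lost its call when WT replicate 2 or either of KO replicates 2 and 3 was left out, and with offsets for length and GC content. Of 16 tested genes of the Ikaros family and NuRD, these 3 passed, where 11.4% of all genes tested passed. The median log2 fold change of the list was 0.19.

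Tcf3 encodes the E proteins E12 and E47, basic helix-loop-helix factors that start the B cell programme. Its level was 141, 169 and 136 CPM in WT and 231, 183 and 218 CPM in KO. Every KO library was above every WT library, and 30.2% of tested genes had no overlap, in either direction. The mean rose from 149 ± 17.9 to 211 ± 24.8 CPM (SD, n = 3 each), or a log2 fold change of 0.50 (SE 0.13, 95% interval 0.23 to 0.78, edgeR adjusted p = 0.0146). The direction held in all 14 alternative fits, between 0.35 and 0.61, but the call did not. It did not survive the removal of WT replicate 1 (edgeR adjusted p = 0.0540), WT replicate 3 (0.0566), KO replicate 1 (0.0745) or KO replicate 3 (0.0685). It was also lost on the deposited RPKM values and with length and GC offsets (0.35, adjusted p = 0.110). Tcf7l1, which an older name also calls Tcf3, has its own row with 119 to 273 counts, so the Tcf3 row is not that gene.

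The balance between E proteins and their Id inhibitors decides how many E proteins can bind DNA, and several of these genes changed beside Tcf3. Tcf12, the E protein HEB, rose from 110 ± 17.3 to 159 ± 24.6 CPM (0.54 on the log2 scale, SE 0.15, edgeR adjusted p = 0.0229) and its call, too, was lost when WT replicate 3 or either of KO replicates 2 and 3 was left out (highest adjusted p = 0.171). The remaining E protein gene, Tcf4, did not pass, with a log2 fold change of -0.05 and an interval of -0.39 to 0.30. Id2, which blocks E proteins and is needed for innate lymphoid cells, had 47.7, 24.4 and 29.0 CPM in WT and 3.82, 8.06 and 11.0 CPM in KO. Its fall by 2.14 on the log2 scale (SE 0.38, adjusted p = 0.000930) kept its call in all 14 alternative fits, with values from -2.50 to -1.81. Id3 was at 18.7 to 19.6 CPM in WT and 10.2 to 12.6 CPM in KO but did not pass (log2 fold change -0.73, edgeR adjusted p = 0.186), and Id1 did not pass either (0.62, interval -0.17 to 1.42). Ldb1, an adaptor of E protein complexes with LMO2, rose by 0.44 (adjusted p = 0.0345), a call that was lost when either of WT replicates 1 and 2 or of KO replicates 2 and 3 was left out, and with the length and GC offsets. Of 9 tested genes of this list, 2 were higher and 1 was lower, where 11.4% of all genes tested passed.

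**Figure D2:**
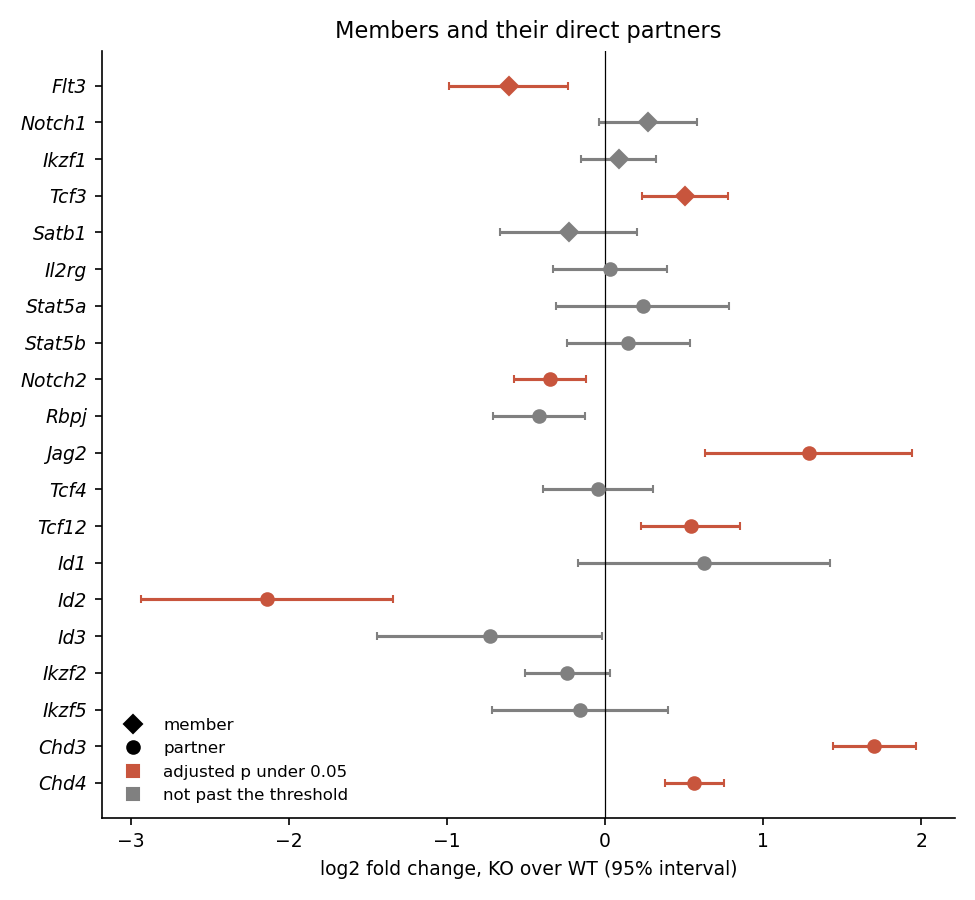
Log2 fold change of KO over WT (horizontal axis, with 95% intervals from edgeR) for the 5 tested members (diamonds) and 15 of their partners (circles); red marks an adjusted p under 0.05. Id2 has the lowest value of the genes drawn (-2.14) and Chd3 the highest (1.70), while Ikzf1 lies nearest to 0 of the members at 0.08.

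Satb1 encodes a chromatin organiser that promotes lymphoid output of stem cells and shapes the genome of thymocytes. Its level was 80.4, 50.8 and 48.6 CPM in WT and 48.5, 56.0 and 48.6 CPM in KO. WT replicate 1 stood above the other 5 libraries, which lay within 48.5 to 56.0 CPM. The log2 fold change was -0.23 (SE 0.21, 95% interval -0.67 to 0.20) and did not pass (edgeR, adjusted p = 0.545). Without WT replicate 1 it was 0.04, so the sign rested on that library.

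Ebf1 encodes early B cell factor, which with TCF3 commits cells to the B lineage. Its counts were 1, 4 and 5 in WT and 0 in each KO library. WT and KO did not overlap, and the exact permutation p of the difference in CPM was 0.1, the smallest that 3 against 3 libraries allow. Against 3 counts over the KO libraries, the WT level as counted was 4.11-fold higher, and 3.34-fold without WT replicate 3. These ratios leave out the counting error of the few WT reads and are not lower bounds. Of 371 genes with 8 to 12 counts summed over WT, 31.5% had 0 in all KO libraries and 9.43% were read in all 3 WT libraries. The share with both traits, as Ebf1 had, was not counted. The relatives Ebf2, Ebf3 and Ebf4 had 0 to 2 counts in every library.

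Rag1 encodes the catalytic subunit of the recombinase that cuts antigen receptor genes. Counts were 1, 31 and 0 in WT against 0, 11 and 0 in KO, so WT replicate 2 and KO replicate 2 held 42 of its 43 reads. The groups overlapped (exact permutation test of CPM, two-sided, p = 0.7), and without WT replicate 2 the KO mean was higher by 0.194 CPM. Its partner gene Rag2 was read 25, 3 and 0 times in WT and not once in KO, most of them in WT replicate 1 instead. In the annotation Rag1 shares exon sequence on the same strand with B230118H07Rik, which had 137 to 400 counts, so reads of their common part could be assigned to either gene.

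Reads of B cell genes were also found in WT replicate 2. Pax5, the factor that fixes B cell identity, had 3, 33 and 0 counts in WT, Vpreb1, of the surrogate light chain, had 0, 36 and 0, and Cd79a, of the B cell receptor, had 4, 12 and 5, and all 3 had 0 in KO. These 3 genes are from the list of 16 B lineage genes and were named after their values were seen. The sum of all 16 was 82.5 CPM in WT replicate 2, against 93.3 CPM in WT replicate 3 and 85.4 CPM in KO replicate 1. Other genes of that list had KO reads, among them Bank1 and Cd72, whose log2 fold changes were 0.34 and 1.18 without passing (edgeR adjusted p = 0.390 and 0.568). Concentration of reads in 1 library was common at this depth. Among 989 genes with 20 to 50 counts summed over WT, 24.2% had at least 90% of them in 1 library, and for KO it was 24.4% of 923 genes. Reads amplified by PCR are not independent molecules, so 31 reads may come from fewer RNA fragments, and the limits given for counts of 0 hold for counting error alone.

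Dntt encodes terminal deoxynucleotidyl transferase, which adds untemplated bases at antigen receptor junctions and is known to be scarce in fetal lymphocytes. It had 0 counts in all 6 libraries. For each library taken alone, the limit that a count of 0 allows was 0.200 to 0.301 CPM. Pooling the libraries of a group lowered this limit, to 0.0722 CPM for KO and to 0.0891 CPM for WT. Dntt levels under these pooled limits are not excluded by the counts.

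**Figure D3:**
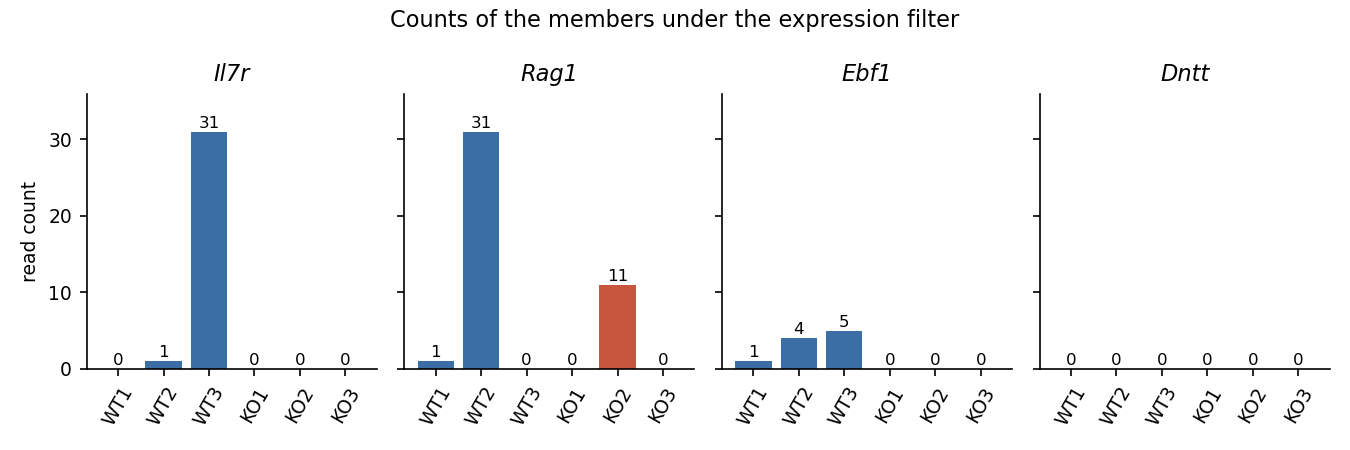
Read counts (vertical axis) of the 4 members under the expression filter in each of the 6 libraries, WT in blue and KO in red. Il7r reads stand in WT replicate 3 (31), Rag1 reads in WT replicate 2 (31) and KO replicate 2 (11), Ebf1 reads in the 3 WT libraries (1, 4 and 5), and Dntt has none.

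The general end joining enzymes that finish recombination were expressed in both groups. Of 12 listed genes of recombination and end joining, 11 were tested, all but Rag2, and 0 passed in edgeR, with 3 at an unadjusted p under 0.05 and a list median of 0.22. With limma-voom 0 passed, and with DESeq2 1 was higher, Hmgb2. Hmgb2 also passed with the length and GC offsets, and Dclre1c passed with no filter and without WT replicate 3. The 3 genes at an unadjusted p under 0.05, named after their values were seen, were Hmgb2, a bending protein that helps the recombinase, at a log2 fold change of 0.26, Dclre1c, the Artemis nuclease that opens hairpin ends, at 0.93, and Poll, a gap-filling polymerase, at 0.63 (edgeR adjusted p = 0.0800, 0.103 and 0.159).

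Among 21 other genes of lymphoid-primed progenitors, 18 were tested, 1 was higher and 2 were lower. Gfi1, a repressor that acts in stem cells and in early lymphoid and myeloid choices, rose from 72.7 ± 14.3 to 112 ± 11.5 CPM (log2 fold change 0.62, edgeR adjusted p = 0.0199). Runx1, a master factor of blood formation, fell by 0.57 and Hhex, a homeobox factor needed for lymphoid progenitors, by 0.51 on the log2 scale (adjusted p = 0.0210 and 0.0209). Each of these 3 lost its call without KO replicate 2 or KO replicate 3, and Runx1 and Hhex also without WT replicate 1, Gfi1 and Hhex also without WT replicate 2, and Gfi1 with the length and GC offsets. The chemokine receptor genes Ccr9 and Ccr7 and the early B cell marker Ly6d were near 0, with at most 18 counts in any library, and were named for these counts. Over all 7 partner lists, 12 of 89 tested genes passed, 6 in each direction, a share near the 11.4% of all genes tested. Each call among the partners that was lost without a library was also lost on the deposited RPKM values.

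Markers of mature lymphoid cells were low in both groups. Of 16 B lineage genes 4 were tested, of 20 T lineage genes 7 and of 13 natural killer and innate lymphoid genes 5, and 0 passed in edgeR in each list, with 1, 2 and 1 at an unadjusted p under 0.05. DESeq2 fitted 14, 17 and 11 genes of these lists, more than edgeR tested, and called 0, 1 and 1, both lower. The natural killer or innate lymphoid gene called by DESeq2 was not among the 5 tested in edgeR. In each list limma-voom called 0. The B lineage genes Blnk and Vpreb3, the T cell genes Cd3e, Cd2 and Themis, and the natural killer genes Ncr1 and Prf1 had 0 counts in all 6 libraries. The summed level of the B list was 65.7 to 93.3 CPM in WT and 68.9 to 85.4 CPM in KO, most of it from Cd79b and Bank1, whose counts were 255 to 539 and 295 to 792. The T list summed to 38.3 to 65.1 CPM in WT and 54.4 to 76.4 CPM in KO.

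Lists of other cell types were counted in the same fit, where 11.4% of all genes passed. The sum of 12 erythroid genes was 599 to 1026 CPM in WT against 280.0 to 303 CPM in KO, with 6 of 10 tested genes lower, among them Alas2 and Car2, while Hba-a1 and Hbb-b1, near-identical copies in the genome, were at 0. The macrophage sum was lower in every KO library than in every WT library, with Lyz2 and Lyz1 called. Of the 10 megakaryocyte genes 4 were lower and 1 was higher, and of the 10 granulocyte genes 1 was lower and 1 higher. The granulocyte sum was 508 to 602 CPM in WT and 380.2 to 436 CPM in KO, and 4 of its genes were lower with no filter or without WT replicate 3 and 3 with limma-voom. Of 5 tested mast cell and basophil genes 1 was higher, of 8 tested hepatoblast genes 1 was lower, and of 10 endothelial genes 1 was lower and 1 higher. The part of these cells in the changes of Flt3, Tcf3 and Id2 was not tested.

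**Figure D4:**
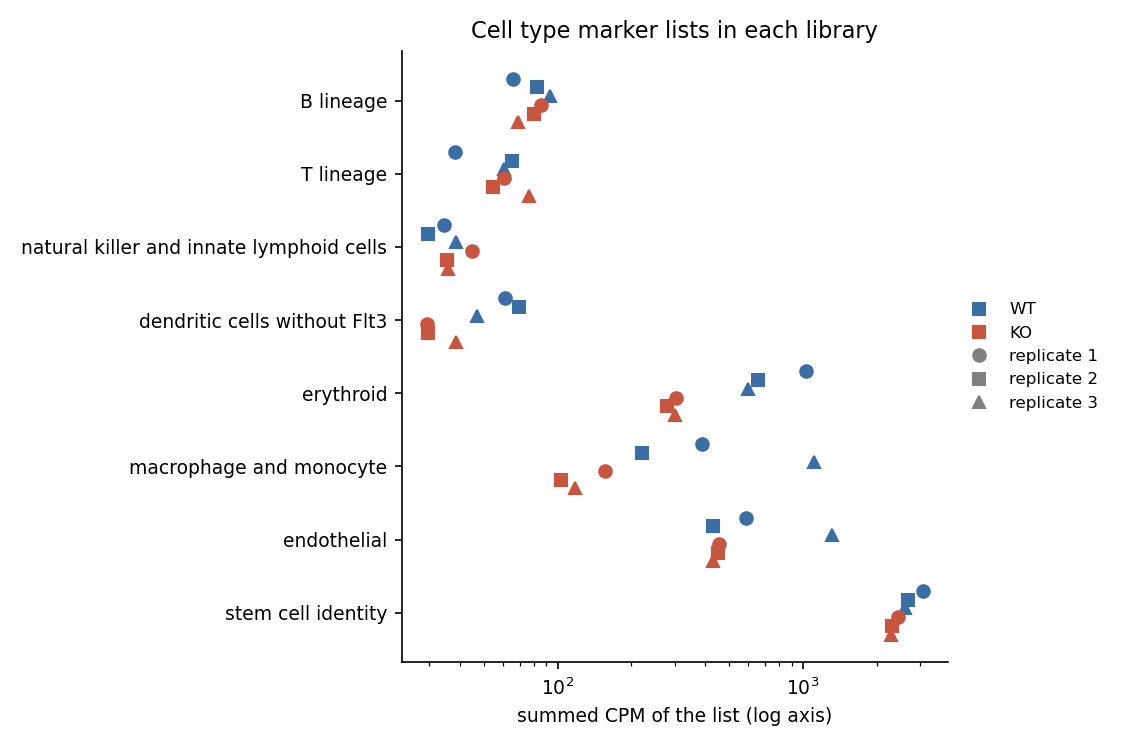
Summed CPM (horizontal log axis) of 8 lists of cell type markers in each library, WT in blue and KO in red, with a symbol per replicate number. The B, T, natural killer and endothelial lists overlap between the groups. The erythroid, macrophage, dendritic cell and stem cell lists are lower in all 3 KO libraries than in every WT library. WT replicate 3 has the highest macrophage (1110 CPM) and endothelial (1309 CPM) sums.

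Profiles most like those of the tested members were sought among 186 other tested genes of the lists, as the root mean square difference of log2 CPM over the 6 libraries after centring each gene on its mean. Runx1 was nearest to Flt3 at 0.05, followed by Hlf at 0.10, where the median gene differed from Flt3 by 0.55. Tcf3 was nearest to Maml2, a Notch coactivator gene, at 0.10 and to Chd4 at 0.14. Ikzf1 was nearest to the NuRD genes Gatad2b at 0.07 and Hdac2 at 0.08, Notch1 to Mfng at 0.12 and Spi1 at 0.14, and Satb1 to Zfp521 at 0.16 and Numb at 0.17. These are descriptions over 6 libraries that share depth and cell makeup.

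**Figure D5:**
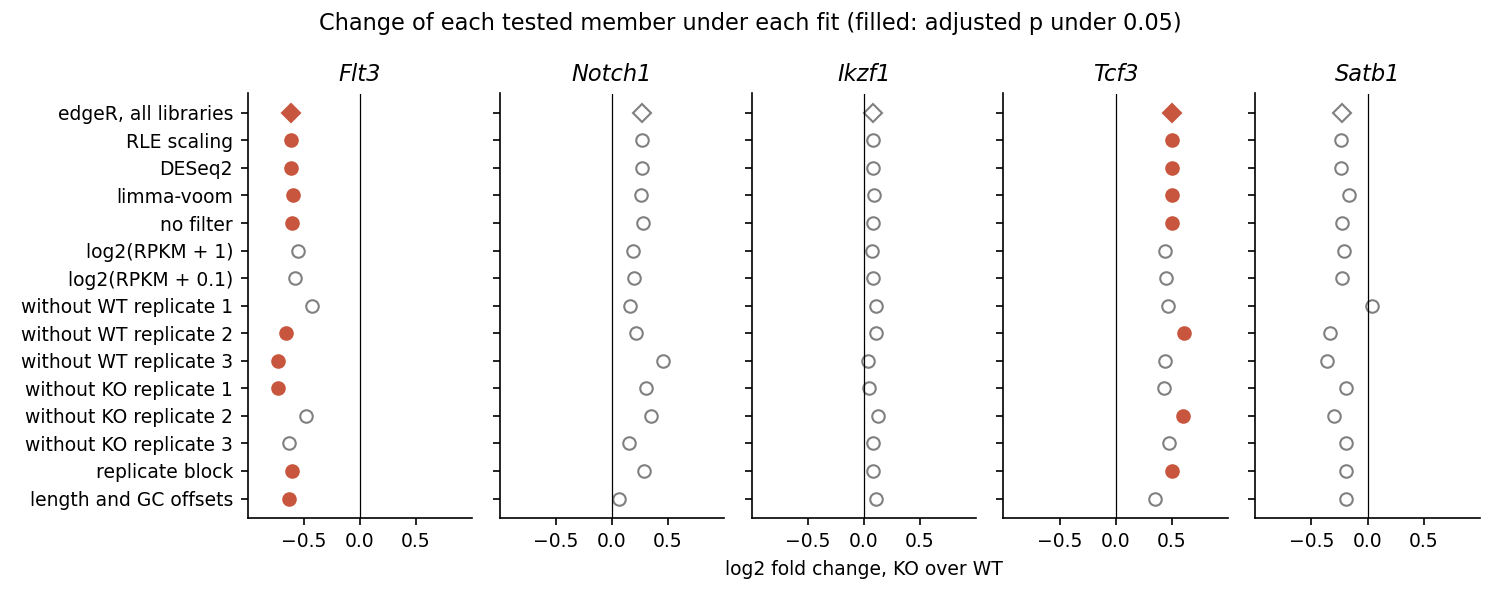
Log2 fold change of KO over WT (horizontal axis) of the 5 tested members in the fit with all libraries (diamond) and in 14 alternative fits (circles); filled symbols have an adjusted p under 0.05. Flt3 is negative and Tcf3 positive in every fit, neither is filled in all of them, and Satb1 changes sign without WT replicate 1.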

How the data were processed

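Total RNA of 3 WT and 3 KO samples was sequenced on a NextSeq500 after SMARTer stranded pico-input library preparation, per the labels' protocols. The authors deposited a table of whole-number read counts per gene symbol and a table of RPKM values. The submitters' processing notes name TopHat, Cufflinks and the mm9 build, while their versions, the counter, the annotation and the strand setting were not found in these sources. Reads of Notch1 and Satb1 cannot be told apart from those of antisense genes that overlap their exons, since the strand setting is unknown, and Satb1 also shares exon sequence with Gm36931 on its own strand.

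The deposited counts went into edgeR 4.0.16 (R 4.3.3) after filterByExpr and TMM scaling, where group alone was the design of a robust quasi-likelihood F test, with Benjamini-Hochberg adjustment over 12204 genes and a threshold of 0.05. The procedure was also run on counts simulated from means and dispersions estimated in these libraries. That run takes the model of the test as given and cannot show how well it holds here. The SE was taken as the absolute log2 fold change over the root of F, and 95% intervals use the moderated degrees of freedom. Genes under the filter were compared by an exact two-sided permutation test of CPM. Rn45s took 10.5% to 11.7% of counts in WT and 4.96% to 9.92% in KO, and Lars2 took 2.85% to 3.37% and 1.70% to 2.31%, and the part of this shift in the results was not tested. Replicates of a group differed beyond counting noise (chi-square per degree of freedom 21.7 to 43.1). Alternatives were RLE scaling, DESeq2 1.42.0, limma-voom (limma 3.58.1), no filter, limma on log2(RPKM + 1) and log2(RPKM + 0.1) of the deposited RPKM values, each library left out, a replicate block and, chosen after seeing the data, offsets for length and GC content from GENCODE M21 transcripts, which gave both for 99.4% of genes tested. The members and lists were chosen with earlier results of these data known. Named were the members, direct partners, in each partner list up to 4 called genes and in each list of other cells up to 3, the markers at 0 and the 2 genes most like each tested member. Some genes that this rule takes in are not reported here.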

Additional observations from a re-analysis of the deposited data

How the results depend on the processing

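The direction of Flt3, Notch1, Ikzf1 and Tcf3 was the same in all 14 alternative fits. On the deposited RPKM values with pseudocounts of 1 and 0.1, limma called 570 and 541 genes in place of 1391, 0 members in both, and 4 and 3 partner genes in place of 12; Flt3 stood at -0.56 and -0.58 and Tcf3 at 0.44 and 0.45, no longer past the threshold, and the cause was not tested. DESeq2, which fitted 100 partner genes in place of 89, called 19 of them. With offsets for length and GC content 1 member passed, Flt3, while Tcf3 stood at 0.35. Leaving out 1 library gave 712 genes (KO replicate 2 left out; 833 for KO replicate 3) to 1263 (WT replicate 2 left out), 0 members (WT replicate 1 or KO replicate 3 left out) to 2, and 3 partner genes (KO replicate 3; 4 for KO replicate 2) to 11. The log2 fold change then lay between -0.73 and -0.42 for Flt3, 0.43 and 0.61 for Tcf3, and -0.36 and 0.038 for Satb1 (0.038 without WT replicate 1), and the mean difference of Rag1 between -1.25 and 0.19 CPM (0.194 without WT replicate 2).

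The labels give both groups the replicate numbers 1 to 3, but deviations of same-numbered libraries from their group means correlated by 0.0154, 0.0121 and -0.00675 over the genes tested, so the numbers were not taken as pairs. With the replicate block 1341 genes, 2 members and 11 partner genes passed, and Flt3 stood at -0.60 and Tcf3 at 0.50. Il7r, Rag1 and Ebf1 had at most 31 counts in any library. With 3 libraries a group, the exact permutation test cannot give a p under 0.1, so these genes could not pass by it. In the edgeR fit with no filter they did not pass, with adjusted p of 0.147, 0.641 and 0.299. The unadjusted p of Il7r was 0.0269 in that fit and 0.0425 with DESeq2 (adjusted p = 0.176).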
